A study of Homo sapiens with 4 samples.

Results

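The genes described here are 45 genes of the interferon response and of the cGAS-STING pathway, chosen by symbol and not by their values. Their symbols were matched to Ensembl gene IDs of the count table, and the rows of each ID were added up. Of the 45, 44 had counts and all 44 entered the test, among 25798 gene IDs with counts and 17090 genes tested. CXCL10, an induced chemokine, was not analysed here. The study treated SW1990, an established human pancreatic adenocarcinoma cell line labelled wild type, with erianin at 100 nM for 48 h. The controls received DMSO, the solvent, for the same 48 h. RNA sequencing of total RNA gave 2 libraries of erianin-treated cells and 2 of DMSO-treated cells. Erianin is a bibenzyl from Dendrobium orchids that is known to bind tubulin, and AKT and ASK1 are its targets by the title of the study. The labels do not say that replicates were separate cultures, so every p-value rests on the spread of these libraries alone, which may be technical.

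Cells sense misplaced nucleic acid through a DNA route and an RNA route. cGAS binds DNA in the cytosol and makes a cyclic dinucleotide that activates STING, while RIG-I (RIGI) and MDA5 (IFIH1) bind RNA and signal through MAVS. Both routes activate the kinase TBK1 and the transcription factor IRF3, which switch on type I interferon genes. Interferon binds IFNAR1 and IFNAR2 at the cell surface, the kinases JAK1 and TYK2 phosphorylate STAT proteins, and these join IRF9 on a DNA element, the interferon-stimulated response element, before antiviral genes. Many tumour cell lines express a part of these induced genes without added interferon.

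The core of that element was searched in promoter windows from RefSeq (GRCh38.p14), which run from 250 bases before to 50 bases after an annotated start site. The pattern was GAAA, any 2 bases and GAAA, or TTTC, any 2 bases and TTTC where it lies on the other strand. Windows were found for 34 of the 45 genes. There was no entry for CGAS, STING1, IRF3, IRF7, IFNAR2, IFIT2, OAS2, OASL, MX2, IFITM2 and USP18. Of the 34 genes, 19 held a match, or 55.9%, against 3.57% of all 35116 windows and 4.38% of all 27305 genes in the table. The 19 were CXCL10, BST2, DTX3L, EIF2AK2, IFI27, IFI44, IFI44L, IFI6, IFIH1, IFIT1, IFIT3, IFITM1, IFITM3, ISG15, ISG20, MX1, OAS3, PARP14 and PARP9. A second pattern was TTCNNNGAA, the core of the gamma-activated site of interferon gamma signalling. It was held by 9 of the 34 genes (26.5%), against 7.66% of all windows and 9.38% of all genes in the table. Those 9 were BST2, IFI27, IFI35, IFITM1, IRF1, IRF9, MX1, OAS1 and PARP14, and in some of them the 2 patterns overlap. A match is a description of the letters and does not show that a factor binds there. The stretches that follow show, for 12 of the 19 genes that the results below return to, the match nearest to a start site with 10 bases on each side, on the strand of the gene, with the response element core in capitals.
IFIT1, chr10:89392510-89392539, plus strand: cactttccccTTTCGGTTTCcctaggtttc
IFIT3, chr10:89332468-89332497, plus strand: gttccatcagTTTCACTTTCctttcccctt
ISG15, chr1:1013380-1013409, plus strand: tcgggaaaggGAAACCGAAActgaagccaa
IFITM3, chr11:320876-320905, minus strand: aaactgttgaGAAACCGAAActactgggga
BST2, chr19:17405735-17405764, minus strand: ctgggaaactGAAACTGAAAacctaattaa
IFI44, chr1:78649761-78649790, plus strand: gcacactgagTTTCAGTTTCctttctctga
OAS3, chr12:112938452-112938481, plus strand: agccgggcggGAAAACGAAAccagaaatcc
IFIH1, chr2:162318686-162318715, minus strand: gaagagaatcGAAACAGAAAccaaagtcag
EIF2AK2, chr2:37156967-37156996, minus strand: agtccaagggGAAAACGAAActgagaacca
PARP14, chr3:122680800-122680829, plus strand: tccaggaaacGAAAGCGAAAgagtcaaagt
PARP9, chr3:122564322-122564351, minus strand: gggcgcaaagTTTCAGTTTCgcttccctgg
DTX3L, chr3:122564322-122564351, plus strand: ccagggaagcGAAACTGAAActttgcgccc
IFIT1, IFIT3, IFI44 and PARP9 carry the core in its TTTC form, and the other 8 carry it in its GAAA form. PARP9 and DTX3L, which lie head to head, share 1 stretch that is read from opposite strands.

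**Figure D1:**
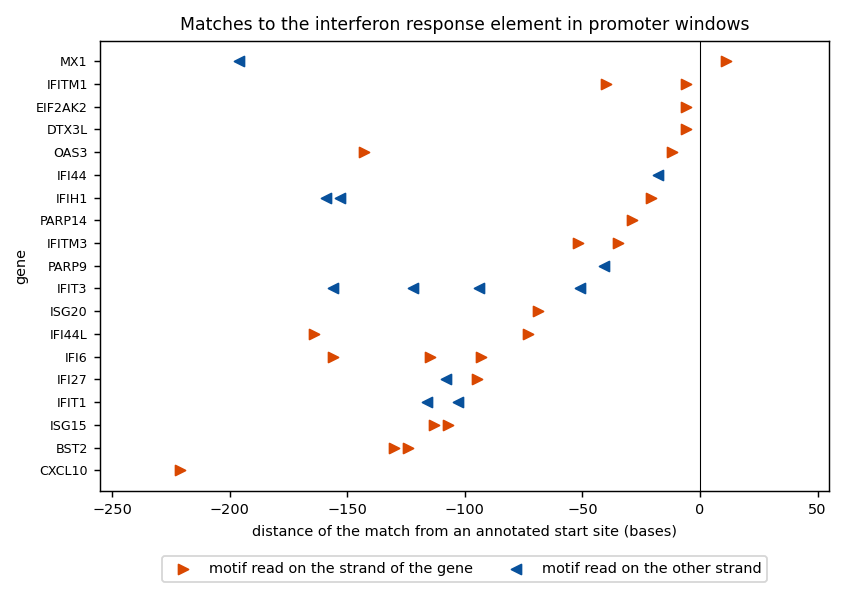
Position of each match to the interferon response element core relative to an annotated start site (x axis, bases) for the 19 genes with a match (y axis). Right-pointing marks are matches on the strand of the gene and left-pointing marks are matches on the other strand. Every match begins before the start site except 1 of MX1, which begins 11 bases after it.

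Levels were compared between genes as FPKM, fragments scaled to transcript length and library size, added up over the rows of a gene. Components of the response were expressed in DMSO-treated cells over a wide range. The effectors IFITM3 and ISG15 were at the top. Near the bottom lay sensors such as RIGI, IFIH1 and CGAS, and effectors such as MX2 and OAS2. IFITM3, a membrane protein that blocks virus entry, led with 978, 945, 1025 and 1063 FPKM (DMSO replicate 1, DMSO replicate 2, then both erianin replicates in that order). In the same order, ISG15, a ubiquitin-like protein, had 449, 445, 429 and 502 FPKM. IRF3 had 166, 162, 182 and 183 FPKM. These levels lay above those of 99.4%, 98.9% and 97.2% of the genes tested. IFITM2, IFI35, OASL, IFITM1 and STING1 followed with means over the 4 libraries of 141, 74.8, 74.2, 61.5 and 47.8 FPKM. Within each library OASL lay above IFITM1. IFI35 lay above OASL in both DMSO libraries and below it in both erianin libraries, so the order of IFI35 and OASL was not the same throughout.

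The cGAS-STING route was uneven in level. STING1 stood at 47.4, 48.6, 49.3 and 46.1 FPKM, while CGAS stood at 1.82, 1.65, 1.84 and 1.32 FPKM and TBK1 at 1.69, 1.24, 1.45 and 0.550 FPKM. The RNA sensors were as low as CGAS, with mean levels of 1.14 FPKM for IFIH1 and 1.12 FPKM for RIGI, against 5.87 FPKM for MAVS, their adaptor. Both receptor chains were low too, at 2.06 FPKM for IFNAR1 and 2.98 FPKM for IFNAR2. The lowest of the 44 was IFI44L, with 41 and 12 counts in DMSO and 0 and 4 counts in erianin. It passed the filter on low counts through the DMSO libraries.

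**Figure D2:**
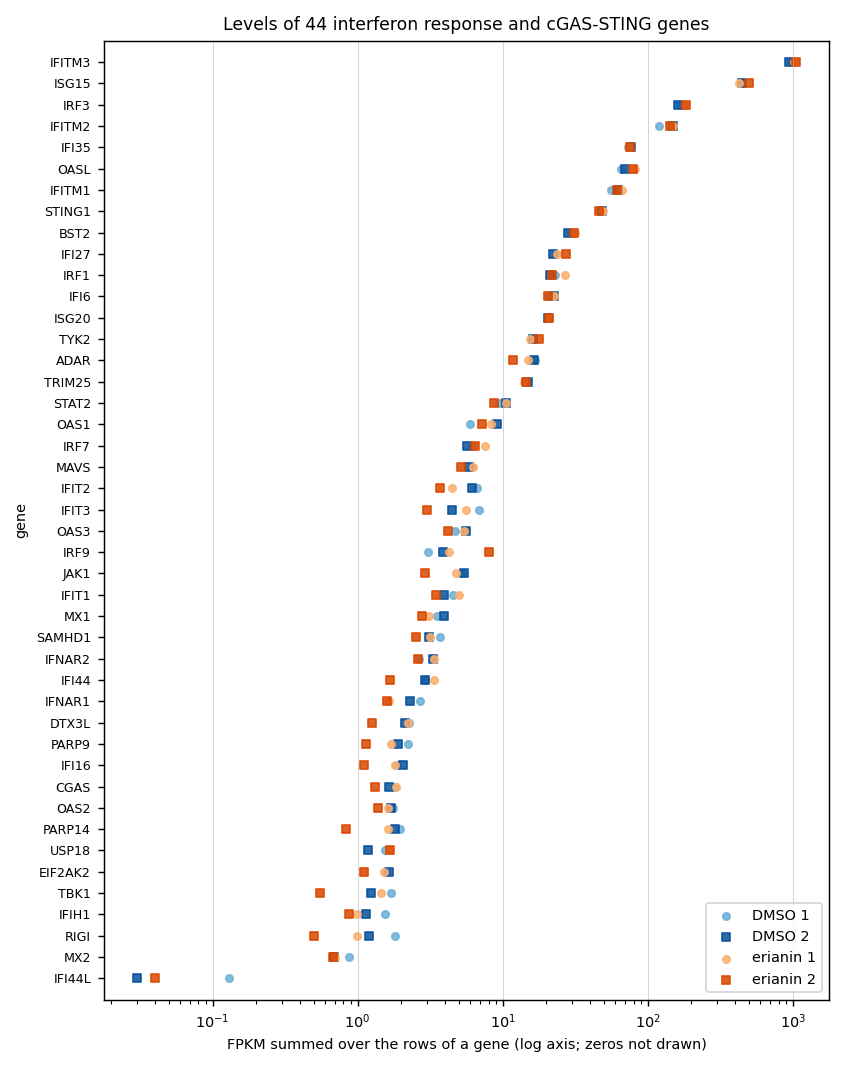
FPKM of each of the 44 genes (y axis) on a log axis (x axis), with 1 point per library: blue for DMSO, orange for erianin, circles for replicate 1 and squares for replicate 2. The genes span from IFI44L at the bottom to IFITM3 at the top, at 1003 FPKM on average.

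Libraries held between 59923935 and 63336545 counts. Of the ductal and epithelial markers, 7 of 7 were detected in each library. Their summed level ran from 12168 to 14955 CPM (counts scaled to a library of fixed size). Most of that sum came from the keratins KRT7, KRT8, KRT18 and KRT19, whose lowest value was 1380 CPM (KRT19, DMSO replicate 1). The other markers were far lower. Across the libraries EPCAM ran from 2.39 to 6.05 CPM, MUC1 from 2.80 to 5.15 CPM and CDH1 from 16.4 to 19.2 CPM. Blood and immune markers, which include those of interferon-producing cells, summed to between 1.47 and 1.65 CPM over 7 of 10 with counts. PTPRC, the pan-leukocyte marker, was at 0 in 3 of the 4 libraries. All 7 fibroblast markers had counts, and their sum was 39.1 CPM in DMSO replicate 1 against 11.4 to 14.3 CPM in the other libraries. The part of this in the results was not tested. In these bulk libraries, fewer cells that express a gene and less of its RNA per cell cannot be told apart.

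The comparison of erianin with DMSO asked whether transcripts of the sensing and response genes differ after 48 h with the compound. None of the 44 genes passed edgeR's quasi-likelihood test at an adjusted p under 0.05 over all genes, and the smallest adjusted p among them was 0.575. Across all genes tested 7 passed, which is 0.041%. DESeq2 called 0 of the 44 genes and 0.123% of all genes, and limma-voom called 0 in both. Counts below are over the 43 genes with a mean of at least 1 CPM, beside the 12905 genes at that level, because IFI44L entered the test only through its DMSO libraries. With p under 0.05 before adjustment, 4 of the 43 were lower in erianin, IFIT2, IFNAR1, PARP14 and PARP9, and 2 were higher, IRF3 and OASL. That is 9.30% and 4.65% of the 43, beside 7.21% and 2.56% of the genes at that level. The log2 fold change was below 0 in 22 of 43 genes (51.2%, against 51.3%). Its median was -0.03 over the 43 and -0.01 over the genes at that level.

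Between libraries the picture was split. Both erianin libraries lay above both DMSO libraries in 13 of the 43 genes (30.2%, against 23.6% of the genes at that level), among them IFITM1, IFITM2, IFITM3, IRF3, IRF7, STING1, BST2 and OASL. They lay below in 13 genes (30.2%, against 26.5%), among them IFIT2, IFNAR1, JAK1, PARP9, PARP14, RIGI, IFIH1 and ADAR. Set against the mean of DMSO, erianin replicate 1 had a median of 0.03 over the 43 genes, and erianin replicate 2 one of -0.10, on the log2(CPM + 0.1) scale. The counts of calls, given at the end, depended on erianin replicate 1. Without it, the median log2 fold change of the 44 genes was -0.12, beside -0.05 over all genes of that fit. In that fit the lone erianin library is assumed to vary as the DMSO libraries do. With each of the other libraries left out in turn, the median of the 44 genes lay between -0.06 and 0.02.

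**Figure D3:**
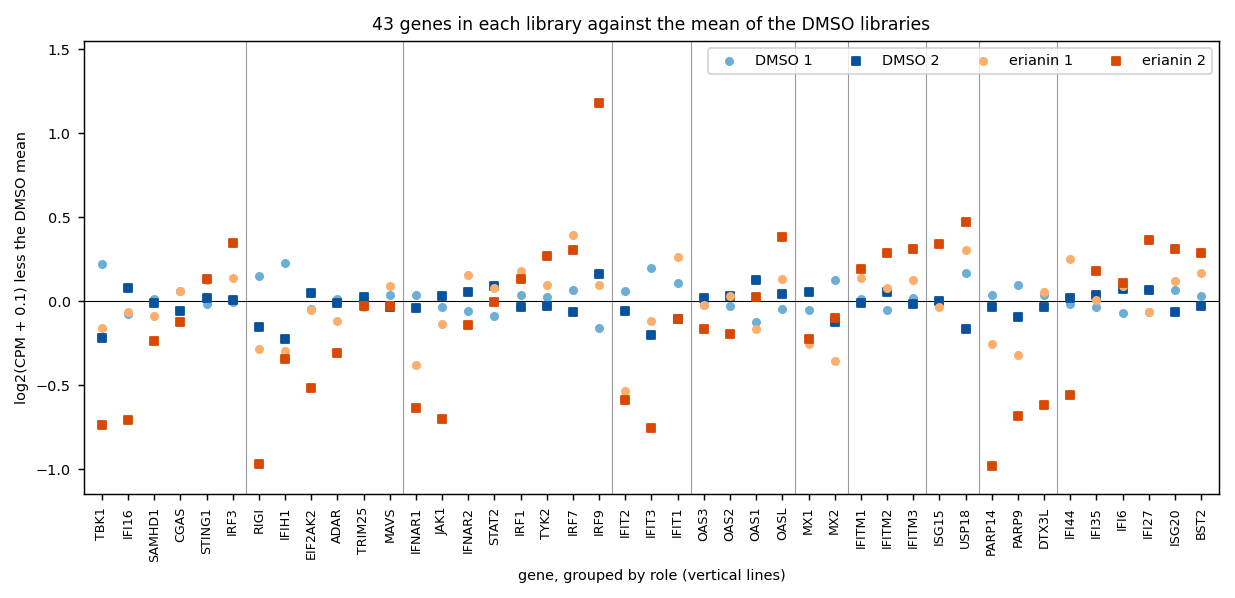
Level of 43 genes in each library, as log2(CPM + 0.1) less the mean of the DMSO libraries (y axis), grouped by role from sensors at the left to other induced genes at the right (x axis). IFI44L is left out for its low counts. Dark orange squares (erianin replicate 2) lie farthest from 0 for most genes, while light orange circles (erianin replicate 1) stay nearer to the DMSO libraries, except for genes such as IFIT2 where both lie low.

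Among genes of DNA sensing, IRF3 was the only one of the 6 with an unadjusted p under 0.05. IRF3 (ENSG00000126456, chr19:49659569-49665875, minus strand), the transcription factor that TBK1 phosphorylates, had 258 and 261 CPM with DMSO against 285 and 330.0 CPM with erianin. Both erianin libraries were above both DMSO libraries. The means were 259 ± 1.91 CPM for DMSO against 308 ± 31.7 CPM for erianin (SD, n = 2 per group), with a log2 fold change of 0.25 ± 0.10 (SE) and an adjusted p of 0.575. Leaving out erianin replicate 2 gave 0.14. The value turned to -0.39 when only the largest of the 30 rows of IRF3 was used, and the share of that row ran from 23.8% to 48.5% of the gene's counts. IRF3 shares 734 bases of exon with BCL2L12 on the other strand, and no source used here gives the strand setting of the counting. STING1 (ENSG00000184584, chr5:139475534-139482935, minus strand), the adaptor of cGAS, had 108 and 111 CPM with DMSO against 119 and 120.0 CPM with erianin, so the groups did not overlap but lay close. CGAS, the DNA sensor itself (ENSG00000164430, chr6:73413515-73452276, minus strand), had 6.0 and 5.51 CPM with DMSO against 5.998 and 5.27 CPM with erianin. Its groups overlapped. TBK1 had 5.77 and 4.22 CPM with DMSO against 4.41 and 2.92 CPM with erianin, with the lowest value in erianin replicate 2. IFI16, a nuclear DNA sensor, had 5.68 and 6.35 CPM with DMSO against 5.75 and 3.64 CPM with erianin and was likewise low in erianin replicate 2 alone. SAMHD1, which degrades nucleotides and restricts retroviruses, had 16.5 and 16.1 CPM with DMSO against 15.3 and 13.8 CPM with erianin. The median log2 fold change of the 6 genes was -0.10, and 0.05 with the GC and length trend described further down removed. STING1 was at 0.13 before that removal and at 0.015 after it, and CGAS at -0.03 and 0.16.

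Of the 6 genes of RNA sensing, 5 had a log2 fold change below 0, beside 51.3% of all genes tested, and none had an unadjusted p under 0.05. TRIM25, among the 5, was at -0.03. With the GC and length trend described further down removed, 3 of the 6 were below 0. The median of the 6 was -0.24 before that removal and -0.02 after it. RIGI (ENSG00000107201, chr9:32455705-32526324, minus strand) had 7.04 and 5.69 CPM with DMSO against 5.18 and 3.19 CPM with erianin, so erianin replicate 2 was lowest and the groups did not overlap. Its means were 6.37 ± 0.958 CPM for DMSO against 4.18 ± 1.41 CPM for erianin (SD, n = 2 per group). Its log2 fold change was -0.60 ± 0.28 (SE) with an adjusted p of 0.575. Leaving out erianin replicate 2 gave -0.30, and leaving out erianin replicate 1 gave -1.01. The largest row of RIGI took between 0% and 96.7% of its counts, and with that row alone the value turned to 0.25. IFIH1 had 6.06 and 4.41 CPM with DMSO against 4.19 and 4.05 CPM with erianin. EIF2AK2, the kinase PKR that halts translation on double-stranded RNA, had 17.03 and 18.2 CPM with DMSO against 16.9 and 12.3 CPM with erianin, and only erianin replicate 2 stood apart. ADAR, which edits double-stranded RNA and keeps it from the sensors, had 122 and 120.3 CPM with DMSO against 112 and 97.8 CPM with erianin. The adaptor MAVS had 80.96 and 76.9 CPM with DMSO against 83.8 and 77.3 CPM with erianin. TRIM25, a ubiquitin ligase that acts on RIG-I, had 91.8 and 95.1 CPM with DMSO against 90.98 and 91.5 CPM with erianin. These last 2 genes were nearly level across the libraries.

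Among the receptor, kinase and transcription factor genes, IFNAR1 (ENSG00000142166, chr21:33324477-33359862, plus strand) was lower in both erianin libraries. It had 14.5 and 13.7 CPM with DMSO against 10.8 and 9.02 CPM with erianin, and the groups did not overlap. The means were 14.1 ± 0.541 CPM for DMSO against 9.91 ± 1.26 CPM for erianin (SD, n = 2 per group), with a log2 fold change of -0.51 ± 0.17 (SE) and an adjusted p of 0.575. IFNAR2, the partner chain, had 11.5 and 12.5 CPM with DMSO against 13.4 and 10.9 CPM with erianin, with overlapping groups. It shares 2038 bases of exon with a read-through gene (AP000295.1, ENSG00000249624) whose counts ran from 0 to 203. JAK1, which binds the cytosolic tail of IFNAR2, had 30.03 and 31.4 CPM with DMSO against 27.9 and 18.9 CPM with erianin, with a gap only in erianin replicate 2. TYK2, which binds that of IFNAR1, had 80.7 and 77.7 CPM with DMSO against 84.5 and 95.2 CPM with erianin. STAT2 had 45.1 and 51.1 CPM with DMSO against 50.8 and 47.9 CPM with erianin, with overlapping groups. IRF7, the factor that amplifies interferon gene transcription, had 12.5 and 11.4 CPM with DMSO against 15.7 and 14.8 CPM with erianin. IRF1, an early induced factor, had 84.1 and 79.9 CPM with DMSO against 92.9 and 89.9 CPM with erianin, and both groups again stood apart by little. IRF1 shares 1716 bases of exon with C5orf56 on the other strand.

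IRF9 (ENSG00000213928, chr14:24161053-24166565, plus strand), a DNA-binding factor that acts with STAT2, had the highest log2 fold change of the 44 genes, and it rested on 1 library. It had 7.21 and 9.04 CPM with DMSO against 8.64 and 18.4 CPM with erianin, so only erianin replicate 2 was high. Its log2 fold change was 0.73 ± 0.33 (SE) with an adjusted p of 0.575, and it was 0.09 without erianin replicate 2. A read-through gene on the same strand (AL136295.5, ENSG00000259529, chr14:24151218-24167402) covers 1838 bases of IRF9 exon. It had 31.3 and 29.7 CPM with DMSO against 39.1 and 17.3 CPM with erianin, so the library in which IRF9 was high is the one in which the read-through gene was low. Of the counts of both genes, IRF9 took 18.7% and 23.3% in DMSO and 18.1% and 51.6% in erianin. With the counts of both added, the log2 fold change was 0.11 ± 0.16 (SE). IRF9 was singled out after its values had been seen.

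The 3 IFIT genes, whose products bind viral RNA and block its translation, lie together on chromosome 10 and had unlike values. IFIT2 (ENSG00000119922, chr10:89283694-89309276, plus strand) had the smallest p of the 44 genes. It had 26.4 and 24.3 CPM with DMSO against 17.4 and 16.8 CPM with erianin, and each erianin library was below both DMSO libraries. The means were 25.4 ± 1.47 CPM for DMSO against 17.1 ± 0.438 CPM for erianin (SD, n = 2 per group), with a log2 fold change of -0.57 ± 0.14 (SE) and an adjusted p of 0.575. IFIT3 had 19.8 and 15.02 CPM with DMSO against 15.9 and 10.2 CPM with erianin, with overlapping groups. IFIT1 had 22.1 and 19.1 CPM with DMSO against 24.6 and 19.1 CPM with erianin, with overlapping groups and a log2 fold change of 0.09 ± 0.18 (SE). That sign was not firm: it was -0.12 without erianin replicate 1, -0.02 without DMSO replicate 2, and -0.01 with library totals alone.

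IFIT2 also shares exon sequence with another gene on its strand. AL353751.1 (ENSG00000232110, chr10:89283765-89292125) shares 356 bases of exon with it and had 62.6 and 56.4 CPM with DMSO against 67.1 and 67.6 CPM with erianin. Of the counts of both genes, IFIT2 took 29.7% and 30.1% in DMSO and 20.6% and 19.9% in erianin. The sum of both was 88.99 and 80.8 CPM with DMSO against 84.5 and 84.4 CPM with erianin. With the counts added, the log2 fold change was -0.01 ± 0.10 (SE). AL353751.1 held 70.3% and 69.9% of that sum in DMSO and 79.4% and 80.1% in erianin. The sum therefore mostly follows AL353751.1 and cannot decide whether IFIT2 itself was lower. No source used here gives how reads were divided between these genes. The largest of the 6 rows of IFIT2 took from 28.02% to 62.2% of its counts, while IFIT1 had 99.7% or more in 1 row in each library.

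**Figure D4:**
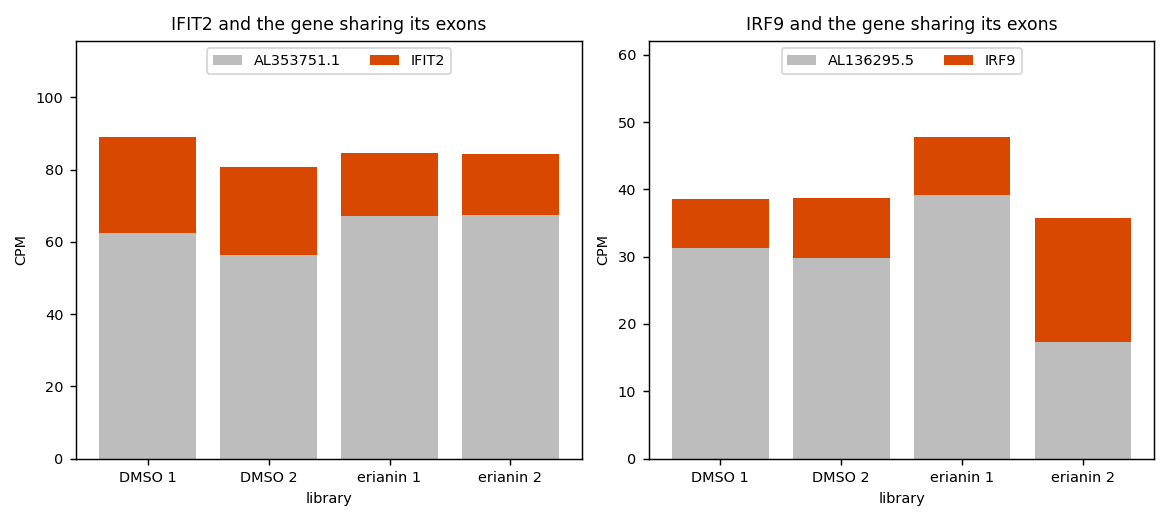
Stacked CPM (y axis) of IFIT2 with AL353751.1 (left) and of IRF9 with AL136295.5 (right) in each library (x axis), orange for the gene of the interferon response and grey for the gene that shares its exons. The orange part of the left panel is smaller in both erianin libraries. The stacks of that panel are mostly grey, and those of erianin lie between those of DMSO. The orange part of the right panel is large in erianin replicate 2 alone, where the grey part is smallest.

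Of the 4 OAS genes, whose products make the oligoadenylates that activate RNase L, 1 had an unadjusted p under 0.05. OASL (ENSG00000135114, chr12:121019111-121039242, minus strand), a family member without that enzyme activity, had 190.2 and 202 CPM with DMSO against 215 and 255 CPM with erianin. Both erianin libraries were above both DMSO libraries. The means were 196 ± 8.50 CPM for DMSO against 235 ± 28.7 CPM for erianin (SD, n = 2 per group), with a log2 fold change of 0.26 ± 0.11 (SE) and an adjusted p of 0.575. Leaving out erianin replicate 2 gave 0.13. OAS1 had 20.2 and 24.1 CPM with DMSO against 19.6 and 22.5 CPM with erianin. OAS2 had 7.74 and 8.09 CPM with DMSO against 8.09 and 6.91 CPM with erianin. OAS3, which makes the longest products, had 35.5 and 36.5 CPM with DMSO against 35.5 and 32.03 CPM with erianin, and only OAS3 of these had groups that did not overlap.

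The MX genes encode dynamin-like GTPases that trap viral nucleocapsids. MX1 (ENSG00000157601, chr21:41420304-41459214, plus strand) had 12.6 and 13.6 CPM with DMSO against 10.9 and 11.2 CPM with erianin, with a log2 fold change of -0.24 ± 0.16 (SE) and an adjusted p of 0.602. MX2 had 3.24 and 2.71 CPM with DMSO against 2.29 and 2.75 CPM with erianin, and its groups overlapped. The 3 IFITM genes had log2 fold changes above 0, although with the GC trend described further down removed IFITM2 had -0.01. IFITM3 (ENSG00000142089, chr11:319669-327537, minus strand) had 676 and 659.8 CPM with DMSO against 727 and 829 CPM with erianin, a log2 fold change of 0.22 ± 0.10 (SE) and an adjusted p of 0.575. Without erianin replicate 2 that fold change was 0.12. IFITM1 had 46.3 and 45.4 CPM with DMSO against 50.5 and 52.3 CPM with erianin. IFITM2 had 132 and 143 CPM with DMSO against 145 and 167 CPM with erianin. In each of these genes the groups did not overlap. Reads of these near-identical family members may be hard to assign, so their split is uncertain, and the annotation gives IFITM1 and IFITM2 351 bases of shared exon.

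ISG15 and the protease that removes it from proteins, USP18, had log2 fold changes above 0 too, and with the GC trend removed that of ISG15 was -0.11. Without erianin replicate 2 ISG15 was at -0.03. ISG15 had 320.4 and 319 CPM with DMSO against 312 and 406 CPM with erianin, so erianin replicate 1 was below DMSO and erianin replicate 2 above it. USP18 (ENSG00000184979, chr22:18149899-18177397, plus strand) had 3.18 and 2.50 CPM with DMSO against 3.50 and 3.94 CPM with erianin, a log2 fold change of 0.39 ± 0.26 (SE) and an adjusted p of 0.615. Without DMSO replicate 2 it was 0.225. PARP9, DTX3L and PARP14, neighbours on chromosome 3 of which PARP9 and DTX3L form an ADP-ribosyl and ubiquitin transferase complex, had a median log2 fold change of -0.50, and of -0.22 with the GC trend removed. PARP14 (ENSG00000173193, chr3:122680618-122730840, plus strand), a mono-ADP-ribosyltransferase, had 16.5 and 15.7 CPM with DMSO against 13.5 and 8.12 CPM with erianin. The groups did not overlap, and erianin replicate 2 was lowest. The means were 16.1 ± 0.559 CPM for DMSO against 10.8 ± 3.79 CPM for erianin (SD, n = 2 per group), with a log2 fold change of -0.58 ± 0.24 (SE). Leaving out erianin replicate 2 gave -0.26, and leaving out erianin replicate 1 gave -0.999. PARP9 (ENSG00000138496, chr3:122527924-122564577, minus strand) had 9.01 and 7.89 CPM with DMSO against 6.74 and 5.22 CPM with erianin and a log2 fold change of -0.50 ± 0.21 (SE), or -0.33 without erianin replicate 2. DTX3L had 14.6 and 13.9 CPM with DMSO against 14.8 and 9.23 CPM with erianin, so it was low in erianin replicate 2 only. It shares the response element stretch printed above, and 217 bases of exon on the other strand, with PARP9. The adjusted p was 0.575 for PARP14 and for PARP9.

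Of the other induced genes, BST2, a tether that holds virions at the membrane, had 33.0 and 31.7 CPM with DMSO against 36.3 and 39.4 CPM with erianin. ISG20, an exonuclease, had 30.9 and 28.2 CPM with DMSO against 32.1 and 36.6 CPM with erianin. IFI6, a mitochondrial and ER protein that opposes apoptosis, had 18.9 and 20.9 CPM with DMSO against 21.1 and 21.4 CPM with erianin. These 3 had both erianin libraries above both DMSO libraries by small amounts. IFI27 had 14.7 and 16.1 CPM with DMSO against 14.7 and 19.9 CPM with erianin. IFI35 had 98.7 and 104 CPM with DMSO against 102 and 115 CPM with erianin. IFI44 had 5.03 and 5.14 CPM with DMSO against 6.06 and 3.42 CPM with erianin, high in erianin replicate 1 and low in erianin replicate 2. In these last 3 genes the groups overlapped. IFI44L had 0.621 and 0.192 CPM with DMSO against 0 and 0.0720 CPM with erianin, and its fitted log2 fold change of -3.48 ± 1.43 (SE), with an adjusted p of 0.575, depends on how values near 0 are handled.

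Fold changes of these genes followed the GC content of their transcripts and, less closely, transcript length. The Spearman correlation between log2 fold change and GC content of the longest transcript was 0.81 across the 44 genes, which share the same 4 libraries and are not independent replicates. It was 0.66 over 7996 genes whose mean log2 CPM reached 3 and that had a GC value. With transcript length the correlation was -0.56 across the 44 genes and -0.37 over the 7996 genes. The parts of GC content and of length were not separated. All 11 of the genes with a GC content of at least 55% lay above 0, and their median log2 fold change was 0.18. Among them were IRF3, IFITM2, IFITM3, ISG15, BST2 and STING1. Of the 16 genes under 45%, 15 were below 0, with a median of -0.39, and the exception was IFIT1. IFI44L is among the 15. The 17 genes between had a median of 0.01. Over all genes tested, the medians were 0.14 at 55% or more, -0.02 between and -0.26 under 45%. Below 0 lay 23.5% of all genes tested at 55% or more and 76.1% of those under 45%, so the split was not peculiar to the 44 genes. These limits were set after the values had been seen. The slant was steeper in erianin replicate 2, where the median against the DMSO mean was 0.29 for the genes at 55% or more and -0.63 for those under 45%, than in erianin replicate 1, with 0.10 and -0.14.

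When the trend of a library with GC and transcript length was taken out, the differences of IRF3, IFNAR1, PARP14, PARP9, RIGI and IFITM3 were smaller. The median over the 44 genes was 0.01, 21 of 44 were below 0 (47.7%, against 51.9% of all genes), and 0 passed in edgeR, where 5 genes passed in all (0.0293%). The log2 fold change was then 0.09 for IRF3, -0.22 for IFNAR1, -0.29 for PARP14, -0.22 for PARP9, -0.36 for RIGI and 0.00 for IFITM3. It was -0.34 for IFIT2 and 0.57 for IRF9, both of which share exons with another gene. It was 0.25 for OASL (0.105 without erianin replicate 2), -0.27 for MX1 and 0.33 for USP18 (0.154 without DMSO replicate 2). At an unadjusted p under 0.05, IFIT1 (0.34), OASL and IRF1 (0.17) were higher and IFIT2 was lower. That is 6.82% and 2.27% of the 44, beside 3.36% and 3.12% of all genes. OASL and IFIT2 were in these groups with and without the trend removed. After the removal, the Spearman correlation of log2 fold change with GC content was 0.37 across the 44 genes, against 0.02 over the 7996 genes. The 16 genes under 45% then had a median of -0.18, against -0.03 for all tested genes under 45%. Part of the trend thus remained among the 44 genes.

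**Figure D5:**
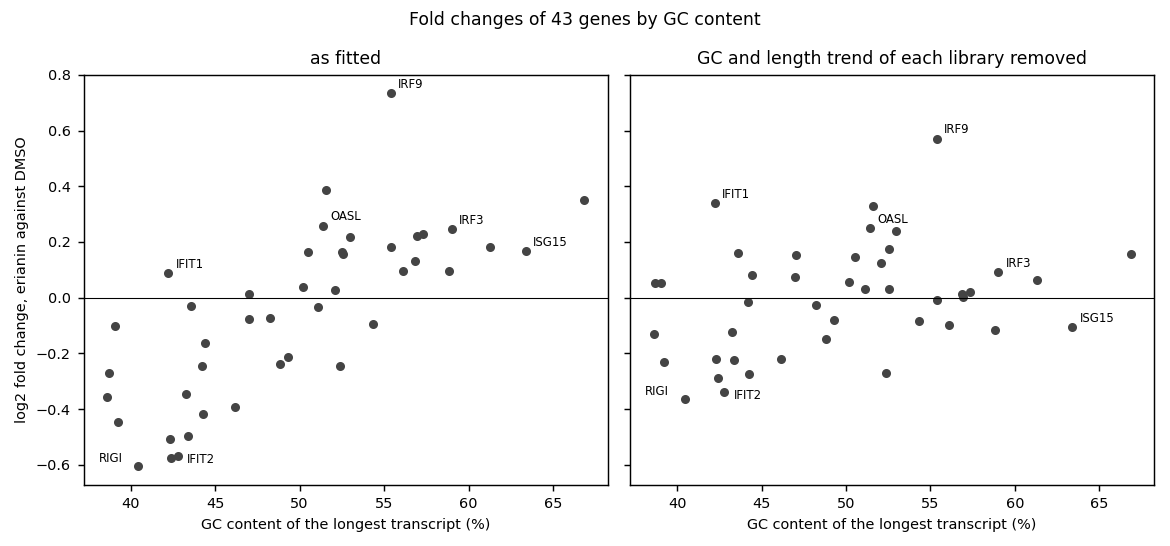
Log2 fold change of erianin against DMSO (y axis) by GC content in percent of the longest transcript (x axis) for 43 genes, IFI44L left out, as fitted (left) and after removal of the GC and length trend of each library (right). The points rise from left to right in the left panel and are flatter in the right panel, where IFIT1, OASL and IRF9 lie above 0. Over the 44 genes the Spearman correlation with GC content was 0.81 as fitted and 0.37 after the removal.

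Genes of the same pathway outside the 45 were taken from lists of 87 symbols, of which 74 had counts. None of 8 interferon ligand genes (IFNB1, IFNA1, IFNE, IFNK, IFNL1, IFNL2, IFNL3 and IFNG) was analysed here. Without the genes next to the interferon cluster, 67 were tested, 0 passed in edgeR, 28 were above 0 and 39 below (58.2%, against 51.3% of all genes tested), and the median was -0.06. At an unadjusted p under 0.05, 7 were lower (10.4%, against 5.89%), among them IFNGR1, HERC5, HERC6 and PNPT1, and 0 were higher (against 2.21%). The 7 include TRIM22, with 42 and 22 counts in DMSO and 8 and 4 counts in erianin. TRIM22 passed the filter on low counts through its DMSO libraries, so it could only be called lower. TLR3, also among the 7, was low too, with means of 1.05 CPM in DMSO and 0.42 CPM in erianin. IFNGR1, a chain of the interferon gamma receptor, had 6.56 and 6.43 CPM with DMSO against 5.18 and 3.01 CPM with erianin and a log2 fold change of -0.66 ± 0.28 (SE). PTPN6, a phosphatase that dampens JAK signalling, had one of 0.31 ± 0.16 (SE). Both had groups that did not overlap. With the GC and length trend removed, IFNGR1 was at -0.48 and PTPN6 at 0.14. Of the 67 genes, 35 were then below 0, beside 51.9% of all genes tested, and the median was -0.01.

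HERC6 and HERC5, of which HERC5 is the main ligase for ISG15 in human cells, were the induced genes with the smallest p outside the 45. HERC6 had 6.51 and 6.80 CPM with DMSO against 4.16 and 3.44 CPM with erianin and a log2 fold change of -0.81 ± 0.22 (SE). HERC5 had 10.3 and 8.86 CPM with DMSO against 7.11 and 3.53 CPM with erianin and a log2 fold change of -0.84 ± 0.31 (SE). Both kept most of this with the GC and length trend removed (-0.66 and -0.68). PNPT1, an exonuclease of mitochondrial RNA, had one of -0.41 ± 0.18 (SE). Among sensors and adaptors, the helicase gene DDX60 had a log2 fold change of -0.52 ± 0.24 (SE). DHX58, which encodes the RIG-I-like protein LGP2, had one of 0.33 ± 0.17 (SE), and the kinase gene IKBKE one of 0.28 ± 0.16 (SE). With the GC and length trend removed, PNPT1 was at -0.15, DDX60 at -0.24, DHX58 at 0.18 and IKBKE at 0.14. Leaving out erianin replicate 2 gave -0.32 for IFNGR1, -0.43 for HERC5, -0.24 for DDX60 and 0.13 for IKBKE, and leaving out DMSO replicate 1 gave 0.12 for PTPN6 and 0.22 for DHX58. The adjusted p-values of these 8 genes lay between 0.575 and 0.578 in edgeR. The genes next to the type I interferon cluster on chromosome 9 were expressed: CDKN2A had 329 and 337 CPM with DMSO against 324 and 428 CPM with erianin, MTAP had 13.6 and 15.2 CPM with DMSO against 13.7 and 11.2 CPM with erianin and FOCAD had 9.42 and 9.82 CPM with DMSO against 9.86 and 7.52 CPM with erianin. Their log2 fold changes of 0.17 ± 0.13 (SE), -0.21 ± 0.17 (SE) and -0.15 ± 0.19 (SE) each changed sign with the GC and length trend removed.

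Genes with and without the response element core were then set side by side. Among the 18 tested genes with a match, 8 were above 0 and 10 below, with a median log2 fold change of -0.10. Among the 15 with a promoter window and no match, 6 were above and 9 below, with a median of -0.07. With the GC and length trend removed the medians were -0.05 and -0.03. IFIT1 with 2 matches lay above 0, with a sign that was not firm, and IFIT3 with 4 lay below it. The 4 matches of IFIT3 are spread over windows of separate start sites. A relation between the number of matches and the fold change was not tested.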

How the data were processed

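Total RNA was extracted with TRIzol and made into libraries by a standard Illumina method, per the labels' protocols. Tools listed in the submitters' processing notes are featureCounts 2.0.1, StringTie 2.2.1, STAR and fastp, and the build listed is GRCh38, with no role or order. The authors deposited whole numbers that were treated as estimated counts (107429 rows for 25798 gene IDs), since rows of 1 gene hold unequal shares as if reads were apportioned between transcripts. The FPKM values were deposited by the authors for the same rows, per the file headers. Plain counts per gene had been assumed in the plan. Rows were added per gene ID, and IDs were matched to symbols through a gene name table. GENCODE 29 (GRCh38) gave gene positions (counted from 1) and, for 97.76% of the genes tested, GC content and length, taken from the longest transcript.

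Groups were compared with the quasi-likelihood test of edgeR 4.0.16 in R 4.3.3, with no covariate and 2 residual degrees of freedom, TMM factors (0.928 to 1.04), filterByExpr at a minimum count of 10, and Benjamini-Hochberg adjustment over 17090 genes at 0.05. SE is the log2 fold change over the root of F. CPM is scaled to the TMM-adjusted library. For the GC and length trend, natural splines with 5 degrees of freedom were fitted per library where a gene's mean log2 CPM reached 3, and entered as offsets. DESeq2 1.42.0 and limma 3.58.1 were alternatives, and the steps were tested on simulated data. Members, lists and tests were chosen with earlier results of these data known. All 45 members are named. Full statistics go to members with an unadjusted p under 0.05 or, in a role group with none, to the one with the smallest p, and from each other list up to 3 genes with the smallest p and a mean of at least 1 CPM are named. A gene that this rule takes from those lists is not reported here. IRF9, IFIT1, IRF1, IFITM2 and ISG15 were added after their values had been seen. Libraries held between 59923935 and 63336545 counts. No source used here gives the strand setting, the annotation or the way reads were divided between genes. Alternatives covered scaling, filters, tools, FPKM pseudocounts of 0.1 and 1, the largest row per gene, a replicate block, the trend removal and leaving out each library. Adding counts of genes that share exons, and leaving out libraries with the trend removed, were chosen after seeing the data.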

Additional observations from a re-analysis of the deposited data

How the results depend on the processing

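With 2 libraries a group, a call rests heavily on single libraries, and counting depth limits IFI44L, with 4 counts or fewer in each erianin library, more than the others. A fit without 1 library takes its spread from the other group alone. Counts of calls from such fits show dependence on a library, and shares of all genes were not computed for them. Against 7 genes past an adjusted p of 0.05 in all, library totals alone gave 2, DESeq2 21, limma-voom 0, limma on log2(FPKM + 0.1) and on log2(FPKM + 1) 2 each, and the largest row of each gene 0. Leaving out 1 library gave between 24 and 3166, and with the GC and length trend removed, an alternative chosen after seeing the data, 12 and 37 without DMSO replicates 1 and 2 and 692 and 25 without erianin replicates 1 and 2. Of the 44 genes, 0 to 16 passed when 1 library was left out, and 0 to 2 with the trend removed as well (IRF9 and OASL, without erianin replicate 1). In the labels, the 2 pairs of same-numbered libraries share only a number, and nothing says whether they were handled together. The deviations of these libraries from the group means had a correlation of 0.16 over 8027 genes, which cannot decide whether they are paired. With a replicate block 334 genes passed, 14 with the block and the trend removed, and 1 of the 44 genes, PARP14, passed with the block (adjusted p 0.0496 in edgeR, log2 fold change -0.62), while 5 were higher and 8 lower at an unadjusted p under 0.05. The count of the 44 higher at that p, 2 in the report, was 4 with RLE or upper-quartile factors, DESeq2 or a minimum of 1 CPM in 2 libraries, 1 with either FPKM fit or the largest row, 0 with library totals, 0 to 11 without 1 library and 0 to 7 with the trend removed and 1 library left out. The count lower, 5 with IFI44L included, was 2 and 1 with the FPKM fits at 0.1 and 1, 1 with the trend removed, with or without the block, 0 to 13 without 1 library and 0 to 5 with the trend removed and 1 library left out (3 without erianin replicate 2). The median of the 44 genes was -0.13 with library totals (which moved the median of all genes from -0.01 to -0.11), -0.14 with the largest row and -0.12 to 0.020 without 1 library.

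For 27 of the genes with printed fold changes, 593 values were computed over 22 alternatives. Of these, 532 kept direction and side of the threshold, 21 passed it and 40 changed sign. Of the 27 genes, 17 had no change of sign. TRIM25, STING1 and CGAS are not among the 27, and TRIM25, at -0.03, was at 0.03 with the trend removed. With the largest row, IRF3 was at -0.39 and RIGI at 0.25. IFIT1 was at -0.0054 with library totals, -0.020 and -0.014 with the FPKM fits at 0.1 and 1, and -0.12 to 0.26 without 1 library. With the trend removed and DMSO replicates 1 and 2, then erianin replicates 1 and 2, left out in turn, IFITM3 was at 0.048, -0.041, -0.063 and 0.056, IFITM2 at -0.035, 0.018, -0.044 and 0.018 and ISG15 at -0.096, -0.12, -0.11 and -0.12. PTPN6 was then at -0.027, 0.32, 0.10 and 0.17, CDKN2A at -0.066, -0.058, -0.0045 and -0.13, MTAP at -0.023, 0.22, 0.12 and 0.077 and FOCAD at 0.021, 0.12, 0.0062 and 0.13. With the trend removed in all libraries, IFITM2, ISG15, CDKN2A, MTAP and FOCAD were at -0.0069, -0.11, -0.062, 0.097 and 0.070. With the replicate block as well they were at -0.007, -0.11, -0.064, 0.10 and 0.070. Without 1 library and with no trend removed, ISG15 ran from -0.034 to 0.33, CDKN2A from -0.037 to 0.35 and FOCAD from -0.36 to 0.037. The cause of each change was not tested.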
